A study of Arabidopsis thaliana with 22 samples.

Results

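The 31 genes described here code for the carbon fixation machinery of the Arabidopsis chloroplast, and they were chosen by locus from a table of 25680 loci. They are 4 nuclear genes of the Rubisco small subunit, Rubisco activase, 5 genes of the reduction steps and 11 of the regeneration steps of the Calvin-Benson cycle, 3 CP12 genes, 5 genes linked to Rubisco assembly and 2 chaperonin subunits. All 31 passed the filter on low counts and were among the 20372 loci tested. RNA was sequenced from mature leaves of the wild type and of 4 photorespiratory mutants, each 1 T-DNA insertion allele: hpr1-1 (peroxisomal hydroxypyruvate reductase), shm1-2 (mitochondrial serine hydroxymethyltransferase), glyk1-1 (chloroplast glycerate kinase) and pglp1-1 (chloroplast phosphoglycolate phosphatase). All plants, the wild type included, grew in air with 1% CO2 (HC), which keeps photorespiration low. One set stayed in HC; for the other CO2 was lowered to 0.038% (LC) at the end of a night, and leaves of both sets were taken 8 h after the light came on. The wild type has 3 libraries at each CO2 level and every mutant has 2. The series text calls these replicates biological but does not say whether plants were pooled, so the p-values below rest on library-to-library spread only.

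Rubisco joins CO2 to ribulose 1,5-bisphosphate, and in competition it joins O2 to the same acceptor, which yields phosphoglycolate. Photorespiration returns the carbon of phosphoglycolate to the Calvin-Benson cycle as glycerate 3-phosphate through the chloroplast, peroxisome and mitochondrion. In the cycle itself, phosphoglycerate kinase and NADP-dependent glyceraldehyde 3-phosphate dehydrogenase reduce the product of carboxylation, and aldolases, bisphosphatases, transketolase, isomerase, epimerase and phosphoribulokinase rebuild the acceptor. Rubisco activase removes sugar phosphates that block Rubisco, CP12 proteins hold phosphoribulokinase and the dehydrogenase in an inactive complex, and chaperonins and further chaperones fold and assemble the Rubisco subunits.

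Library totals lay between 5.91 M counts (1e6 counts), in hpr1 LC replicate 1, and 194.5 M, in shm1 LC replicate 1. Each disrupted gene's transcript lay below all wild-type libraries of that CO2 level in both libraries of its own mutant, at 0.457% to 13.3% of the wild-type mean. In wild-type LC replicate 3, counts of 4920 rows stand on the wrong loci, which covers 7 of the 31 genes (PGK1, GAPA, HCEF1, SBPASE, TKL1, CP12-2 and AT3G47650), so these have 2 wild-type values in LC. Wild-type LC replicate 1 lay below its mates for many of the genes, and the counts of changed genes are therefore also given without it. Wild-type HC replicate 1 also lay below its mates for many of them. It held 3.417% of its counts on the 31 genes, against 4.755% and 5.894% in the other wild-type HC libraries. The label leaf was checked against marker genes. The 4 floral organ markers summed to at most 2.08 CPM (counts per 1e6 counts, TMM-normalised) in any library, and 3 of 5 root markers stayed under 1 CPM in every group. The remaining root markers, SCR and SHR, were present at 6.87 to 26.5 and 1.76 to 9.90 CPM. Marker sums of other leaf cells differed in LC: 4 epidermal markers summed to 303 to 438 CPM in the wild type but 80.5 to 88.7 in shm1, 205 to 228 in glyk1 and 169 to 185 in pglp1. The epidermal sum rests mostly on KCS6 and KCS10, which were lower in each of these mutants. ATML1 counted 21.3 and 22.3 CPM in glyk1 and 38.5 and 35.7 in pglp1, inside the wild-type 17.9 to 45.7. In shm1 ATML1 was lower, at 14.1 and 9.31 CPM, and PDF1 overlapped the wild type in each mutant. The 5 guard cell markers summed to 45.9 to 48.9 CPM in the wild type, 79.1 to 80.8 in shm1, 68.1 to 90.9 in glyk1 and 57.1 to 61.9 in pglp1, but the wild-type sum rests on 2 libraries and its members went opposite ways. In pglp1 in LC, FAMA, a guard cell transcription factor, stood at 30.6 and 25.1 CPM against 4.81 and 10.9 in the wild type, while KAT1, a potassium channel, stood at 6.93 and 8.31 against 32.8, 19.9 and 14.4. The 4 phloem markers summed to 176 to 339 CPM in the wild type, 344 to 364 in shm1, 203 to 281 in glyk1 and 198 to 200 in pglp1, and the part of these shifts in the results below was not tested. Fewer cells of a type and less RNA per cell cannot be told apart in bulk leaf RNA.

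In wild-type leaves in HC the 31 transcripts spanned a 3196-fold range of deposited RPKM (reads per kilobase of transcript and 1e6 mapped reads). The RPKM imply a length for each transcript, which does not match the length column of the same table (for CP12-1, 585 against 4374 bases; for RBCS3B, 999 against 456). The order of genes and the shares within families given here rest on the implied lengths. RBCS1A, the main small subunit gene, led at 16498 ± 5746 RPKM (SD, n = 3), followed by RBCS3B at 3515 ± 1816 and by RCA, the activase, at 2276 ± 293. At the other end stood RBCX2 at 44.6 ± 2.87 RPKM, CP12-3 at 5.34 ± 1.65 and TKL2 at 5.16 ± 0.924. Of the 30 pairs of neighbours in this order, only 4 had library ranges that did not overlap: RBCS1A over RBCS3B, AT5G28500 over FBA3, FBA3 over RBCX2 and RBCX2 over CP12-3. The level of EMB3119 on this scale is uncertain, since its RPKM implies a transcript of 1928 bases while the annotated gene, a single exon, spans 992. Together the 31 genes took 3.08% to 6.09% of all counts in the 11 HC libraries. In LC they took 2.11% and 4.83% in the 2 complete wild-type libraries, 3.08% and 3.17% in hpr1, 0.641% and 0.432% in shm1, 1.99% and 2.05% in glyk1, and 4.05% and 3.67% in pglp1. The shm1 libraries in LC were thus below all others, while those of pglp1 lay inside the wild-type range.

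Lowering CO2 did not detectably change any of the 31 transcripts in the wild type. None was called by edgeR's quasi-likelihood test at an adjusted p under 0.05 (0.0196% of all 20372 loci were called), none had an unadjusted p under 0.05, and DESeq2 called 0 as well. Their log2 fold changes, LC against HC, had a median of -0.16 and ran from -0.60 for CPN60A to 0.55 for CP12-3. Within hpr1, LC raised CP12-3, a CP12 gene of low level, by 1.77 ± 0.37 (adjusted p = 0.0114), given as the log2 fold change ± its SE from edgeR like all such values below, and lowered 4 transcripts, TIM, AT5G51110, CPN60A and CPN60B (15.3% of all loci were called, 8.41% higher and 6.94% lower). These 5 of 31 lie near the share of all loci, and 10 of the 31 had an unadjusted p under 0.05. The chaperonin subunits had the larger falls, -1.94 ± 0.53 (adjusted p = 0.0267) for CPN60A and -1.85 ± 0.57 (adjusted p = 0.0409) for CPN60B. Most of these calls were lost with fewer libraries: leaving out any 1 of the 4 hpr1 libraries left 0 or 1 of the 5. Set against the wild type in LC, hpr1 had 0 calls among the 31 (2.83% of all loci were called), with 1 unadjusted p under 0.05 and log2 differences between -0.90 and 0.47.

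**Figure D1:**
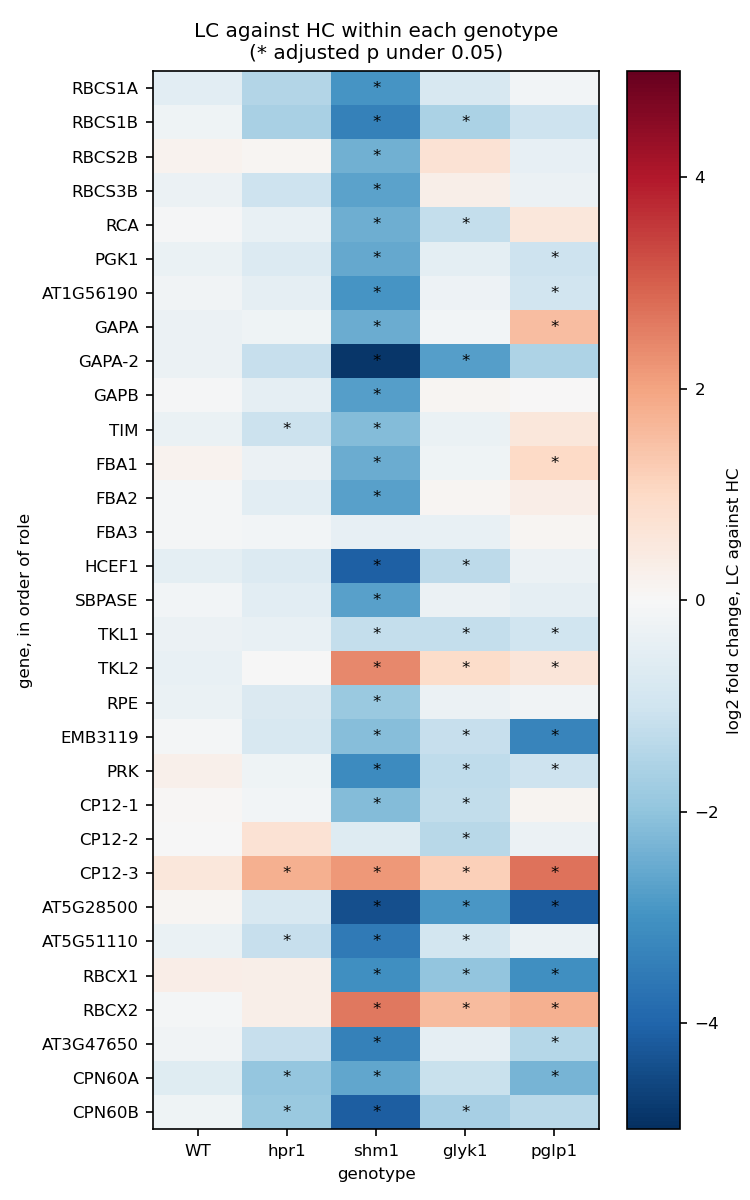
Log2 fold change of each of the 31 genes (rows, by role) in LC against HC within each genotype (columns); red is higher and blue lower in LC, and asterisks mark an adjusted p under 0.05. The wild-type column carries no asterisk, shm1 carries 29, and the rows of RBCX1 and RBCX2 have opposite colours in shm1, glyk1 and pglp1.

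Among plants kept in HC, 1 of these genes, in 1 mutant, passed the test against the wild type. In HC, 0 of 31 were called in hpr1 (0.00491% of all loci called), in shm1 (0.0147%) and in glyk1 (0.00491%), with 1, 4 and 4 unadjusted p under 0.05; DESeq2 called 0, 1 and 0. In pglp1, TKL2, the minor plastid transketolase, was lower, at -0.89 ± 0.23 (adjusted p = 0.0432), where 4.14% of all loci were called and 1.69% were lower. That call was lost in 8 of 12 alternatives. Of the 31 genes, 8 had an unadjusted p under 0.05 in pglp1, and their median log2 difference was 0.46 against -0.04 for all loci. AT3G47650, a DnaJ-type protein, came next at 1.28 ± 0.37 (adjusted p = 0.0649). DESeq2 called 3 of the 31 genes in this comparison, with AT3G47650 higher and TKL2 lower among them. Both pglp1 libraries lay above every wild-type HC library for 16 of the 31 genes and below for 2 (21.4% of all loci either way). Both shm1 libraries lay below for 10 (15.7%) and above for 0 (15.1%), and those of glyk1 for 5 (14.6%) and 2 (15.3%). Median log2 differences of the 31 genes in HC were 0.08 in hpr1, -0.34 in shm1 and -0.28 in glyk1, against 0.01, -0.01 and -0.01 for all loci. Without wild-type HC replicate 1 the medians of the 31 genes were -0.03 in hpr1 and -0.56 in shm1.

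In LC, carbon fixation transcripts were lower than in the wild type almost throughout in shm1, lower in part in glyk1, and both higher and lower in pglp1. Against the wild type in LC, 27 of the 31 were lower and 3 higher in shm1, where 66.5% of all loci were called (35.2% lower, 31.3% higher). In glyk1, 14 were lower and 3 higher, where 56.3% of all loci were called (29.3% lower, 27% higher). In pglp1, 5 were lower and 10 higher, where 60.8% were called (34.7% lower, 26.1% higher). The median log2 difference of the 31 genes was -2.94 in shm1, -0.93 in glyk1 and 0.20 in pglp1, against -0.13, -0.14 and -0.29 for all tested loci. The share of the 31 genes called in either direction was above that of all loci in shm1, near it in glyk1 and below it in pglp1. With DESeq2's size factors the median of all loci in pglp1 moved to -0.09, and 10 higher and 4 lower genes were called; in shm1 and glyk1 it moved by less than 0.1. Without wild-type LC replicate 1, 27 lower and 3 higher genes were called in shm1, 19 and 3 in glyk1, and 8 and 8 in pglp1; without glyk1 LC replicate 1, glyk1 had 10 calls, having lost RCA, GAPA-2, FBA1, TKL2, PRK, CP12-1 and AT5G51110. Without pglp1 LC replicate 1, pglp1 lost GAPB, PRK, AT5G51110 and CPN60A. All mutants share the same wild-type libraries, so these comparisons are not independent of each other.

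Each mutant's LC libraries were also compared with its own HC libraries. In shm1, 26 of the 31 fell and 3 rose (65.4% of all loci called, 33.5% lower and 31.9% higher). In glyk1, 13 fell and 3 rose (54.6%, 27.6% lower and 27.1% higher), and in pglp1 9 fell and 5 rose (56.7%, 32.4% lower and 24.4% higher). In pglp1 falls thus outnumbered rises, unlike against the wild type in LC, but this split depended on scaling, since DESeq2's size factors gave 6 falls and 6 rises. Leaving out glyk1 HC replicate 1 or glyk1 LC replicate 1 left 7 calls in glyk1, leaving out glyk1 LC replicate 2 left 9, and leaving out pglp1 HC replicate 1, pglp1 HC replicate 2 or pglp1 LC replicate 1 left 9, 8 and 9 calls in pglp1.

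**Figure D2:**
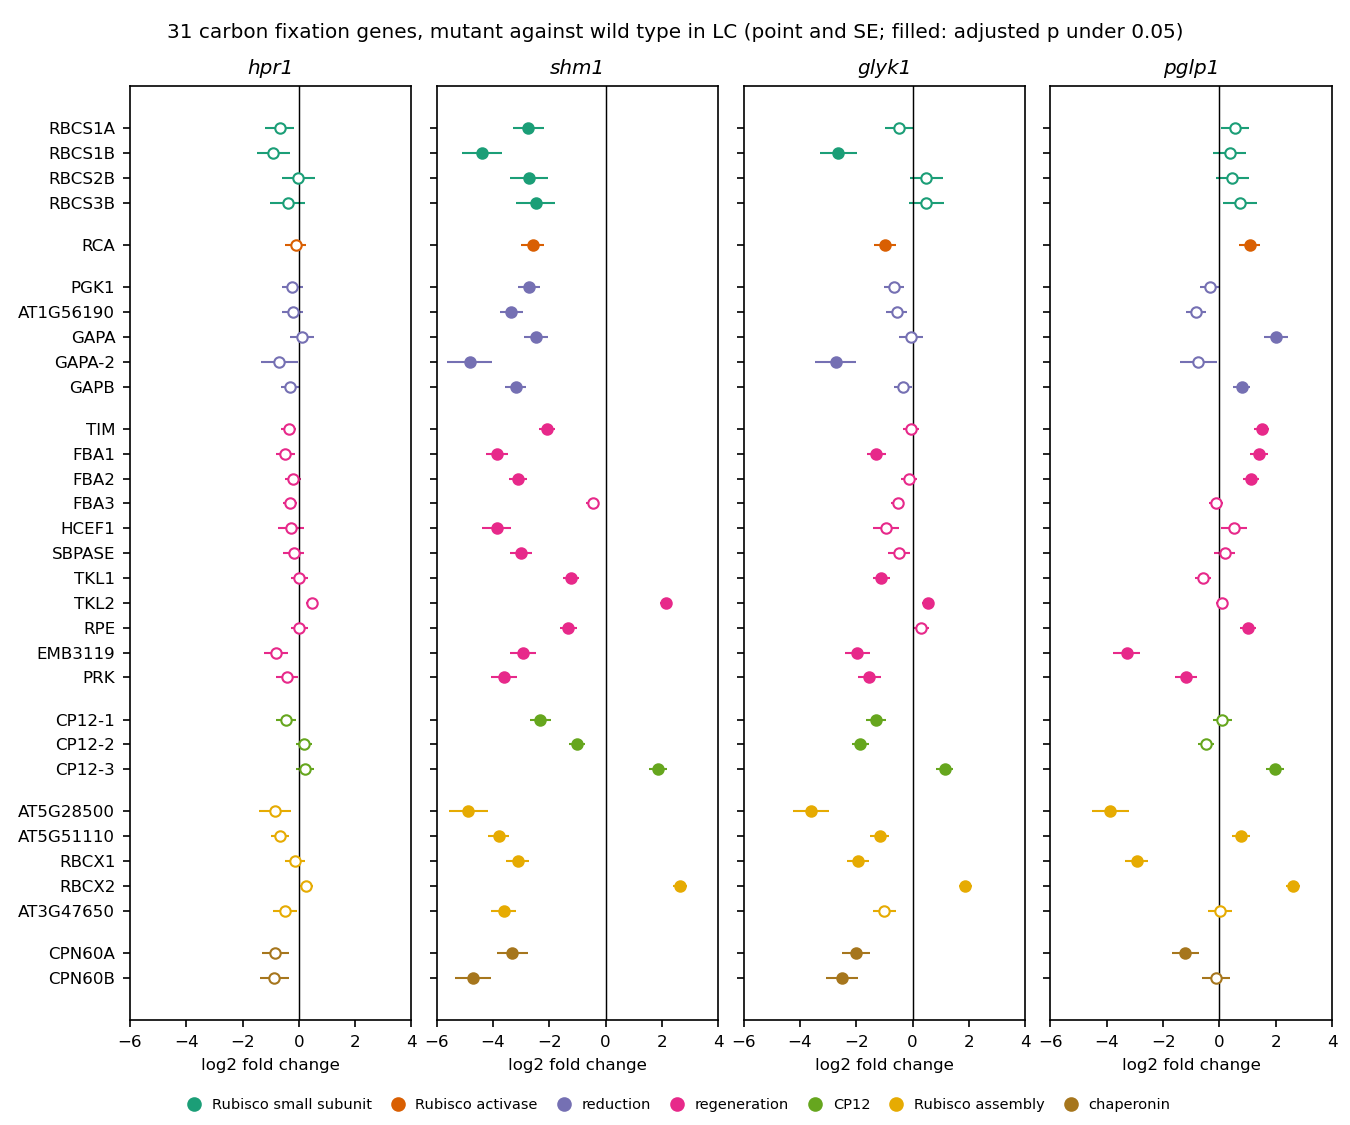
Log2 fold change against the wild type in LC (x axis) of the 31 genes (rows, coloured by role) in the 4 mutants; bars are the SE and filled points have an adjusted p under 0.05. All hpr1 points are open, shm1 has 27 filled points left of 0, and RBCX2 and CP12-3 lie right of 0 in shm1, glyk1 and pglp1.

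All 4 small subunit genes were lower than the wild type in LC in shm1, RBCS1B alone was called in glyk1, and none was called in pglp1. RBCS1A in HC counted 8694, 16999 and 21225 CPM in the wild type, 19139 and 18254 in hpr1, 11442 and 13568 in shm1, 17378 and 9767 in glyk1, and 16565 and 18872 in pglp1. RBCS1A in LC counted 3617, 13080 and 16055 CPM in the wild type, 7349 and 6234 in hpr1, 1941 and 1321 in shm1, 8384 and 7380.3 in glyk1, and 17945 and 14077 in pglp1. The shm1 libraries were the lowest and did not overlap the wild type, whose first LC library lay far below its mates. The log2 difference from the wild type in LC was -2.74 ± 0.57 (adjusted p = 0.000547) in shm1, -0.47 ± 0.51 (adjusted p = 0.447) in glyk1 and 0.55 ± 0.50 (adjusted p = 0.353) in pglp1. RBCS1A made up 64.9% to 67.6% of the RPKM of the 4 small subunit genes in wild-type LC, 65.7% and 71.6% in shm1, 56.8% and 57.1% in glyk1, and 65.1% and 65.3% in pglp1.

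The other 3 small subunit genes, RBCS1B, RBCS2B and RBCS3B, lie in tandem on chromosome 5 and share 96.7% to 97.3% of their coding bases. RBCS1B and RBCS3B have 131 identical 100-base coding windows in common (29.3% and 28.4% of their windows), so reads can be assigned to the wrong copy and single values of the trio are uncertain. Summed over the trio, HC libraries held 2840.5, 5852 and 8632 CPM in the wild type, 7786 and 6928 in hpr1, 4169.9 and 4989 in shm1, 5955 and 3424 in glyk1, and 10376 and 11580 in pglp1. The summed LC libraries held 1484, 6103 and 7773 CPM in the wild type, 3795 and 3876 in hpr1, 928 and 489.8 in shm1, 5855 and 5179.8 in glyk1, and 8668 and 6720.4 in pglp1. Both shm1 libraries in LC lay below every wild-type library, those of glyk1 lay inside the wild-type range, and 1 of the pglp1 libraries lay above it. The summed counts gave a log2 difference from the wild type in LC of -2.75 (adjusted p = 0.00106) in shm1, 0.19 (adjusted p = 0.784) in glyk1 and 0.64 (adjusted p = 0.319) in pglp1.

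Taken singly, RBCS1B parted from its neighbours in glyk1. RBCS1B in HC counted 922, 1413 and 2298 CPM in the wild type, 2371 and 1989.5 in hpr1, 584 and 731 in shm1, 854 and 449 in glyk1, and 3102 and 3898 in pglp1. RBCS1B in LC counted 736, 1618 and 1652 CPM in the wild type, 576 and 851 in hpr1, 108 and 18.2 in shm1, 161 and 269 in glyk1, and 1809.8 and 1623 in pglp1. Both glyk1 and both shm1 libraries in LC lay below every wild-type library. The difference in LC was -2.63 ± 0.65 (adjusted p = 0.00289) in glyk1, while RBCS2B stood at 0.49 ± 0.59 (adjusted p = 0.497) and RBCS3B at 0.49 ± 0.62 (adjusted p = 0.52). Within glyk1, from HC to LC, RBCS1B was called lower, but this call was kept in only 2 of 11 alternatives. None of the 4 small subunit genes had a glyk1 response to LC called against that of the wild type (lowest adjusted p = 0.194). RBCS1B made up 24.1% to 53.8% of the trio's RPKM in wild-type LC but 3.23% and 6.07% in glyk1, 4.40% and 13.5% in shm1, and 23.9% and 27.5% in pglp1; in HC it already made up 15.2% to 17.0% in glyk1 and shm1, against 27.6% to 37.6% in the other HC libraries. The upstream sequences of these near-identical genes are shown because the transcripts differ while the coding parts barely do: 250 bases before the annotated start, read from TAIR10.1 on the minus strand at chr5:15385321-15385570, chr5:15382072-15382321 and chr5:15378643-15378892, with motif matches in capitals.
RBCS1B: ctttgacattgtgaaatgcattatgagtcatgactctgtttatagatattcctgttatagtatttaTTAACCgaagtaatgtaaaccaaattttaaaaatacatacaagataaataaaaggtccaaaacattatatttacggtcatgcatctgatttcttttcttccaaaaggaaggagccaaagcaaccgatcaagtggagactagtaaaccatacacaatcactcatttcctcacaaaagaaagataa
RBCS2B: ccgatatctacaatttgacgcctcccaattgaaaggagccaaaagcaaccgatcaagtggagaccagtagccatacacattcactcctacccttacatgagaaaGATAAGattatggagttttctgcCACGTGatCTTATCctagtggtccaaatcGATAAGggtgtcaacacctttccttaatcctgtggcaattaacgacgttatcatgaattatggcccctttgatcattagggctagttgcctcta
RBCS3B: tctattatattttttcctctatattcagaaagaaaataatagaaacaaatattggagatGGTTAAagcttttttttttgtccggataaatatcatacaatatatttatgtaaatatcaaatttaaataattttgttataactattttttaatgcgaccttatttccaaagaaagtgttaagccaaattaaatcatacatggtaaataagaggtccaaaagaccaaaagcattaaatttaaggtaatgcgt
In RBCS2B the capitals mark 1 G-box (CACGTG) at -123 and 3 I-boxes (GATAAG, or CTTATC on the other strand), at -146, -115 and -94 from the start. In RBCS1B and RBCS3B they mark 1 GT-1 site (GGTTAA or TTAACC) each, at -184 and -191. The windows are set by the annotated starts and do not cover matching stretches of the genes. The RBCS1B window ends inside a stretch that matches RBCS2B at its I-box at -146. It thus stops before the part in which RBCS2B holds its G-box. A motif absent from a window can lie beyond its end, and a difference between the promoters was not tested. G-boxes occur in 4 of the 31 windows (12.9%) and in 6.5% of all 27443 gene starts, I-boxes in 6 (19.4%) and 12.3%, and GT-1 sites in 4 (12.9%) and 14.6%.

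Rubisco activase was lower than the wild type in LC in shm1 and glyk1 and higher in pglp1. RCA in HC counted 3448, 3819 and 4927 CPM in the wild type, 4902 and 4387 in hpr1, 3274 and 3709 in shm1, 4637 and 4576 in glyk1, and 5322 and 5706 in pglp1. RCA in LC counted 1722, 4769 and 5271 CPM in the wild type, 2859.9 and 4399 in hpr1, 649 and 647 in shm1, 2103 and 1879.5 in glyk1, and 8523 and 7939.5 in pglp1. The pglp1 values in LC were above, and the shm1 values below, every wild-type library, and glyk1 fell between the low wild-type library and the others. The differences from the wild type in LC were -2.60 ± 0.41 (adjusted p = 5.59e-05) in shm1, -0.98 ± 0.38 (adjusted p = 0.04) in glyk1 and 1.07 ± 0.37 (adjusted p = 0.0192) in pglp1. The glyk1 call was lost in 9 of 12 alternatives, with adjusted p = 0.115 in the fit with a replicate block, and the pglp1 call with only the groups compared in the fit (adjusted p = 0.183). The rise within pglp1 from HC to LC, 0.58 ± 0.41 (adjusted p = 0.241), was not called, nor was its excess over the wild-type response, 0.63 ± 0.52 (adjusted p = 0.352).

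**Figure D3:**
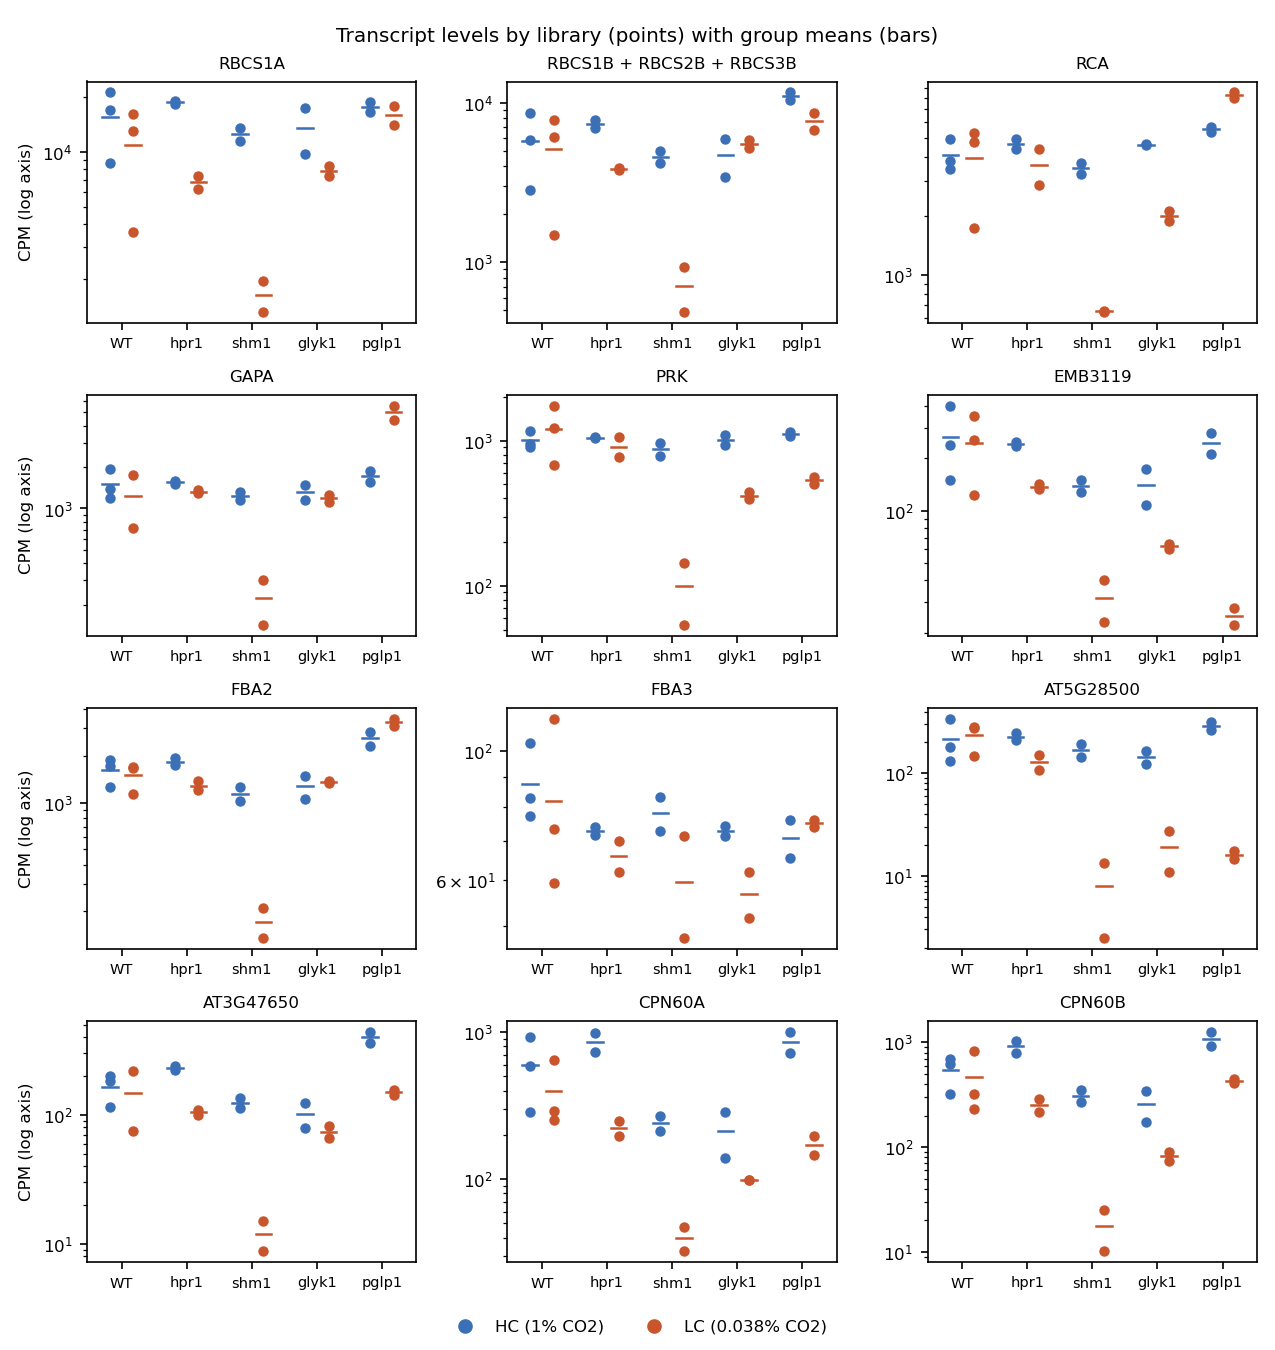
Transcript levels in CPM (log axis, scaled per panel) in each library (points; HC blue, LC orange) with group means (bars), for RBCS1A, the sum of the tandem small subunit genes, RCA and 9 further genes by genotype. The shm1 LC points are the lowest in most panels, RCA, GAPA and FBA2 are highest in pglp1 LC, EMB3119 is low in pglp1 and shm1 LC, and FBA3 (its axis spans a narrow range) overlaps between groups.

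Of the 5 genes of the reduction steps, 5 were lower in shm1 and 1 in glyk1, while GAPA and GAPB, subunits of the NADP-dependent dehydrogenase, were higher in pglp1. Among all loci, 35.2% were lower in shm1 and 29.3% in glyk1, and 26.1% were higher in pglp1. GAPA in HC counted 1185, 1383 and 1929 CPM in the wild type, 1589 and 1515 in hpr1, 1146 and 1311 in shm1, 1487 and 1143 in glyk1, and 1547 and 1876 in pglp1. GAPA in LC counted 725 and 1748 CPM in the wild type, 1288 and 1368 in hpr1, 302 and 143 in shm1, 1120.1 and 1258 in glyk1, and 5602 and 4424 in pglp1. Both pglp1 libraries were above, and both shm1 libraries below, all other libraries of either CO2 level. GAPA differed from the wild type in LC by -2.47 ± 0.44 (adjusted p = 0.000197) in shm1, -0.06 ± 0.42 (adjusted p = 0.918) in glyk1 and 2.02 ± 0.43 (adjusted p = 0.00104) in pglp1, and the response of pglp1 exceeded that of the wild type by 1.83 ± 0.58 (adjusted p = 0.0191), a call that 2 of the fits with 1 library fewer, lacking either wild-type LC replicate 1 or pglp1 HC replicate 1, did not make.

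GAPA-2, the second gene of that subunit (85.8% of coding bases identical to GAPA), did not follow it. GAPA-2 differed by -4.83 ± 0.80 (adjusted p = 8.51e-05) in shm1, -2.74 ± 0.72 (adjusted p = 0.00458) in glyk1 and -0.75 ± 0.65 (adjusted p = 0.338) in pglp1. Its share of the summed RPKM of the pair was 42.4% to 58.2% in the 11 HC libraries and 35.2% and 51.7% in wild-type LC. In LC the share was 35.1% and 42.2% in hpr1, 9.43% and 21.1% in shm1, 13.8% and 15.4% in glyk1, and 12.5% and 15.7% in pglp1. The ranges of shm1, glyk1 and pglp1 thus lay below all other libraries, although both genes were lower in shm1 and GAPA was higher in pglp1. GAPB, the B subunit, differed by -3.19 ± 0.37 (adjusted p = 2.93e-06) in shm1, -0.33 ± 0.32 (adjusted p = 0.396) in glyk1 and 0.79 ± 0.32 (adjusted p = 0.041) in pglp1, where the call was lost without wild-type LC replicate 1 (adjusted p = 0.12). In pglp1 GAPB counted 2117 and 2534 CPM in HC and 2511 and 2217 in LC, against 1156 to 1631 in wild-type HC. The plastid phosphoglycerate kinase genes PGK1 and AT1G56190 were lower in shm1, at -2.72 ± 0.38 (adjusted p = 2.44e-05) and -3.35 ± 0.41 (adjusted p = 5.73e-06), and were not called in glyk1 or pglp1 against the wild type.

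Of the 11 regeneration genes, 9 were lower and 1 higher than the wild type in LC in shm1, 4 and 1 in glyk1, and 2 and 4 in pglp1. The shares of all loci were 35.2% lower and 31.3% higher in shm1, 29.3% and 27% in glyk1, and 34.7% and 26.1% in pglp1. The 4 that were higher in pglp1 were TIM (plastid triose phosphate isomerase) at 1.51 ± 0.27 (adjusted p = 0.000164), FBA1 at 1.40 ± 0.32 (adjusted p = 0.00143) and FBA2 at 1.13 ± 0.28 (adjusted p = 0.00228) (plastid aldolases), and RPE (ribulose phosphate epimerase) at 1.02 ± 0.29 (adjusted p = 0.00587). Within pglp1, from HC to LC, FBA1 was called higher, and TIM, FBA2 and RPE were not called. Of the 11 genes, only TKL2 had a pglp1 response to LC called above that of the wild type, and only EMB3119 one called below it. The 4 differences are thus not shown to be responses to LC beyond that of the wild type. TIM shares 218 bases with a pseudogene on the same strand, which leaves its level uncertain. FBA2, the most abundant of the 11, counted 1253, 1728 and 1881 CPM in the wild type, 1926 and 1738 in hpr1, 1022 and 1259.6 in shm1, 1478 and 1062 in glyk1, and 2310.3 and 2848 in pglp1 in HC. FBA2 in LC counted 1137, 1693 and 1655 CPM in the wild type, 1197 and 1369 in hpr1, 209 and 135 in shm1, 1341 and 1383 in glyk1, and 3455 and 3102 in pglp1. Both pglp1 libraries lay above and both shm1 libraries below all wild-type libraries, while glyk1 lay within them. FBA2 stood at -3.12 ± 0.32 (adjusted p = 1.15e-06) in shm1 and at -0.13 ± 0.28 (adjusted p = 0.699) in glyk1.

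FBA3, the third plastid aldolase, was the single member with no call in any of the comparisons. Its difference from the wild type in LC was -0.46 ± 0.24 (adjusted p = 0.103) in shm1, -0.53 ± 0.24 (adjusted p = 0.074) in glyk1 and -0.13 ± 0.24 (adjusted p = 0.659) in pglp1, and its CPM in all 22 libraries lay between 47.8 and 113. In shm1 in LC, where FBA1 and FBA2 were lower, FBA3 came to 20.5% and 22.6% of the summed RPKM of the 3 plastid aldolases, against 2.43% to 6.15% in the 3 wild-type LC libraries. Against the wild type in LC the bisphosphatases were called in shm1 but not in glyk1 or pglp1: HCEF1, the plastid fructose 1,6-bisphosphatase, at -3.87 ± 0.51 (adjusted p = 1.36e-05) and SBPASE, sedoheptulose 1,7-bisphosphatase, at -3.0 ± 0.41 (adjusted p = 1.7e-05). In pglp1 they stood at 0.51 ± 0.45 (adjusted p = 0.346) and 0.20 ± 0.38 (adjusted p = 0.669). HCEF1 shares 167 bases with a gene on the other strand.

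EMB3119 and PRK were lower in LC in shm1, glyk1 and pglp1, PRK less firmly in pglp1. EMB3119, the plastid ribose 5-phosphate isomerase, counted 151, 240.2 and 402 CPM in the wild type, 249 and 235 in hpr1, 128 and 150.4 in shm1, 173 and 108 in glyk1, and 211 and 279 in pglp1 in HC. EMB3119 in LC counted 124, 256 and 352 CPM in the wild type, 142 and 134 in hpr1, 40.3 and 23 in shm1, 64.6 and 60.3 in glyk1, and 22.2 and 27.5 in pglp1. The pglp1 and shm1 libraries lay lowest, all 6 libraries of shm1, glyk1 and pglp1 lay below the wild type in LC, and no HC library was as low. EMB3119 differed by -2.94 ± 0.47 (adjusted p = 5.36e-05) in shm1, -1.97 ± 0.44 (adjusted p = 0.00158) in glyk1 and -3.29 ± 0.48 (adjusted p = 2.72e-05) in pglp1. Its gene shares 235 bases with a non-coding RNA gene on the other strand, and without a stated strand setting their reads cannot be told apart.

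PRK, phosphoribulokinase, which makes ribulose 1,5-bisphosphate, counted 910, 954 and 1155 CPM in the wild type, 1061 and 1038 in hpr1, 784 and 967 in shm1, 1095 and 927 in glyk1, and 1143 and 1071 in pglp1 in HC. PRK in LC counted 677, 1212 and 1741 CPM in the wild type, 765 and 1054 in hpr1, 144 and 54 in shm1, 395 and 441 in glyk1, and 506 and 565 in pglp1. All libraries of the 3 mutants lay below the wild type in LC, and those of shm1 lay lowest. PRK differed by -3.61 ± 0.45 (adjusted p = 5.74e-06) in shm1, -1.53 ± 0.40 (adjusted p = 0.0045) in glyk1 and -1.18 ± 0.40 (adjusted p = 0.0174) in pglp1, though not past the threshold in the fit with a replicate block (adjusted p = 0.0583). In pglp1 EMB3119 and, less firmly, PRK were thus lower while TIM, FBA1, FBA2 and RPE were higher.

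The transketolase genes had opposite calls in shm1 and, less firmly, in glyk1. TKL2 in HC counted 9.21, 12.4 and 15.3 CPM in the wild type, 14.1 and 12.6 in hpr1, 8.43 and 7.51 in shm1, 7.26 and 7.28 in glyk1, and 6.77 and 6.42 in pglp1. TKL2 in LC counted 10.1, 8.13 and 10.1 CPM in the wild type, 14.9 and 11.6 in hpr1, 47.5 and 36.5 in shm1, 16.3 and 11.4 in glyk1, and 9.70 and 10.5 in pglp1. Both shm1 libraries stood far above all others, whereas both glyk1 libraries lay above the wild-type LC range by less and pglp1 overlapped it. TKL2 differed by 2.15 ± 0.22 (adjusted p = 9.92e-07) in shm1, 0.55 ± 0.22 (adjusted p = 0.0425) in glyk1 and 0.09 ± 0.23 (adjusted p = 0.736) in pglp1. In the same order TKL1 differed by -1.23 ± 0.29 (adjusted p = 0.00199), -1.11 ± 0.29 (adjusted p = 0.00542) and -0.58 ± 0.29 (adjusted p = 0.0991). The glyk1 call of TKL2 was kept in 8 of 12 alternatives and that of TKL1 in 9 of 12. The TKL2 call was lost without glyk1 LC replicate 1, at a log2 difference of 0.32. With only the groups compared in the fit, the glyk1 calls of TKL2 (adjusted p = 0.148) and TKL1 (adjusted p = 0.141) were lost. The shm1 call of TKL1 was also lost in that fit (adjusted p = 0.155). The responses of TKL2 to LC exceeded that of the wild type by 2.77 ± 0.32 (adjusted p = 1.09e-05) in shm1, 1.30 ± 0.31 (adjusted p = 0.00408) in glyk1 and 0.99 ± 0.32 (adjusted p = 0.0209) in pglp1. Even so TKL2 reached only 5.40% and 6.29% of the pair's summed RPKM in shm1, against 0.425% and 0.797% in wild-type LC.

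Among the CP12 genes, the rare CP12-3 was higher in shm1, glyk1 and pglp1, while CP12-1 and CP12-2 were lower in shm1 and glyk1 and not called in pglp1. CP12-3 in HC counted 3.47, 2.05 and 3.14 CPM in the wild type, 1.02 and 1.87 in hpr1, 3.73 and 3.16 in shm1, 2.76 and 5.41 in glyk1, and 2.47 and 2.56 in pglp1. CP12-3 in LC counted 4.40, 3.39 and 4.83 CPM in the wild type, 3.89 and 5.72 in hpr1, 13.6 and 17.2 in shm1, 9.01 and 9.57 in glyk1, and 18.2 and 15 in pglp1. Every library of shm1, glyk1 and pglp1 in LC was above all other libraries. CP12-3 differed from the wild type in LC by 1.87 ± 0.31 (adjusted p = 8.93e-05) in shm1, 1.14 ± 0.31 (adjusted p = 0.00621) in glyk1 and 1.98 ± 0.32 (adjusted p = 7.12e-05) in pglp1, and by 0.22 ± 0.32 (adjusted p = 0.748) in hpr1.

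CP12-1, the most abundant of the family, counted 551, 558 and 974 CPM in the wild type, 591 and 589.6 in hpr1, 612 and 678 in shm1, 692 and 678 in glyk1, and 701 and 715 in pglp1 in HC. CP12-1 in LC counted 379, 745 and 1054 CPM in the wild type, 504 and 557 in hpr1, 159.8 and 129 in shm1, 257 and 333 in glyk1, and 820.3 and 741 in pglp1. In LC, shm1 and glyk1 lay below every wild-type library, and pglp1 lay inside the wild-type range. CP12-1 differed by -2.33 ± 0.37 (adjusted p = 6e-05) in shm1, -1.30 ± 0.36 (adjusted p = 0.00601) in glyk1 and 0.10 ± 0.34 (adjusted p = 0.805) in pglp1. CP12-2 counted 269.7, 243 and 359 CPM in the wild type, 179.6 and 217 in hpr1, 206 and 229.5 in shm1, 202 and 216 in glyk1, and 267 and 232 in pglp1 in HC. CP12-2 in LC counted 219.9 and 354 CPM in the wild type, 270.4 and 388 in hpr1, 143 and 138 in shm1, 63.3 and 95.2 in glyk1, and 196 and 215 in pglp1. The lowest values were those of glyk1, below the shm1 libraries. CP12-2 differed by -1.03 ± 0.29 (adjusted p = 0.00575) in shm1, -1.86 ± 0.29 (adjusted p = 0.000114) in glyk1 and -0.48 ± 0.29 (adjusted p = 0.157) in pglp1. The CP12-2 call in shm1 was lost in 4 of 12 alternatives, with a log2 difference of -0.64 (adjusted p = 0.084) without wild-type LC replicate 2 and -0.85 (adjusted p = 0.0655) without shm1 LC replicate 2. By RPKM, CP12-3 made up 0.131% to 0.595% of the family in the 11 HC libraries, and in LC 4.32% and 6.06% in shm1, 2.16% and 2.69% in glyk1, and 1.53% and 1.74% in pglp1.

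**Figure D4:**
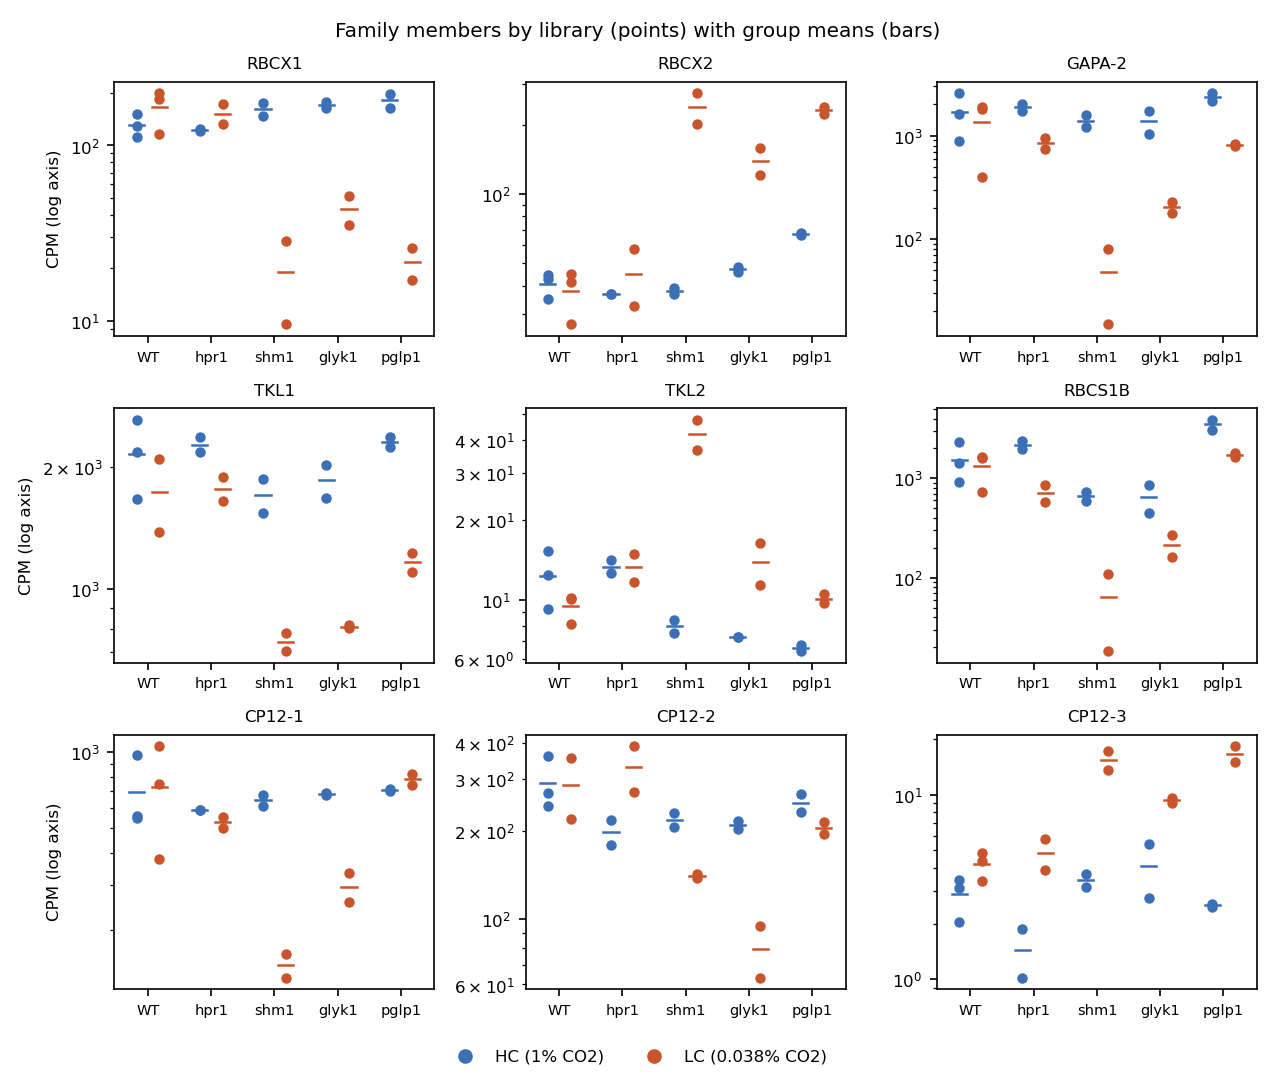
CPM (log axis, scaled per panel) in each library (points; HC blue, LC orange) with group means (bars) for members of gene families with more than 1 plastid copy. RBCX1 is low and RBCX2 high in LC of shm1, glyk1 and pglp1, TKL2 is highest in shm1 LC, and CP12-3 is high in LC of the same 3 mutants.

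The RBCX genes had opposite calls in shm1, glyk1 and pglp1. They code for relatives of a chaperone that in cyanobacteria holds the Rubisco large subunit during assembly. RBCX1 in HC counted 151, 129 and 112 CPM in the wild type, 121 and 124 in hpr1, 147 and 174 in shm1, 164 and 177 in glyk1, and 197 and 163 in pglp1. RBCX1 in LC counted 116, 199 and 183 CPM in the wild type, 132 and 171 in hpr1, 28.4 and 9.56 in shm1, 35.4 and 51.4 in glyk1, and 17.2 and 26.1 in pglp1. All 6 libraries of shm1, glyk1 and pglp1 in LC lay below every other library. RBCX1 differed from the wild type in LC by -3.12 ± 0.41 (adjusted p = 8.76e-06) in shm1, -1.93 ± 0.38 (adjusted p = 0.00057) in glyk1 and -2.93 ± 0.40 (adjusted p = 1.67e-05) in pglp1.

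RBCX2 in HC counted 34.8, 44.4 and 42.7 CPM in the wild type, 36.6 and 36.8 in hpr1, 36.6 and 39 in shm1, 48.4 and 46 in glyk1, and 66.2 and 67.8 in pglp1. RBCX2 in LC counted 27.1, 45 and 41.6 CPM in the wild type, 57.7 and 32.4 in hpr1, 201 and 275 in shm1, 158 and 121 in glyk1, and 223 and 240.1 in pglp1. Here the same 6 libraries lay above every other library. RBCX2 differed by 2.65 ± 0.25 (adjusted p = 5.29e-07) in shm1, 1.88 ± 0.25 (adjusted p = 1.58e-05) in glyk1 and 2.61 ± 0.25 (adjusted p = 4.9e-07) in pglp1, and in hpr1 neither was called, with RBCX1 at -0.13 ± 0.36 (adjusted p = 0.881) and RBCX2 at 0.24 ± 0.25 (adjusted p = 0.619). These opposite calls against the wild type in LC were kept in every alternative run. RBCX2 made up 15.1% to 25.5% of the summed RPKM of both genes in the 11 HC libraries and 13.9% to 16.1% in wild-type LC. In LC it made up 13.5% and 26.3% in hpr1, 85.7% and 96.2% in shm1, 64.7% and 77.5% in glyk1, and 88.7% and 90.8% in pglp1. RBCX1 shares 141 bases with a gene on the opposite strand, and the coding parts of RBCX1 and RBCX2 are 66.7% identical.
The 250 bases upstream of both genes are shown because their transcripts moved in opposite directions; they were read from TAIR10.1 on the minus strand at chr4:2118618-2118867 and chr5:6713938-6714187, with the motif match in capitals.
RBCX1: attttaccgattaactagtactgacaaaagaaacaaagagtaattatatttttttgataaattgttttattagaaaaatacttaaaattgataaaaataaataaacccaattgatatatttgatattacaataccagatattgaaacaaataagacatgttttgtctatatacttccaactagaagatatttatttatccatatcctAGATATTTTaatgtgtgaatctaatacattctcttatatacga
RBCX2: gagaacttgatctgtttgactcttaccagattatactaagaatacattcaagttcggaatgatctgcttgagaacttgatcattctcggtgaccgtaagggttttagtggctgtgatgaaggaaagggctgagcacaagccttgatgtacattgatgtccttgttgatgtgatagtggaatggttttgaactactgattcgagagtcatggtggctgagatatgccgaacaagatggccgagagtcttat
The capitals in RBCX1 mark an evening element (AAAATATCT, here on the other strand) at -43, a motif that is known from clock-controlled genes and occurs in 1 of the 31 windows (3.2%) and in 2.4% of all gene starts. The RBCX2 window holds none of the 4 motifs searched.

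**Figure D5:**
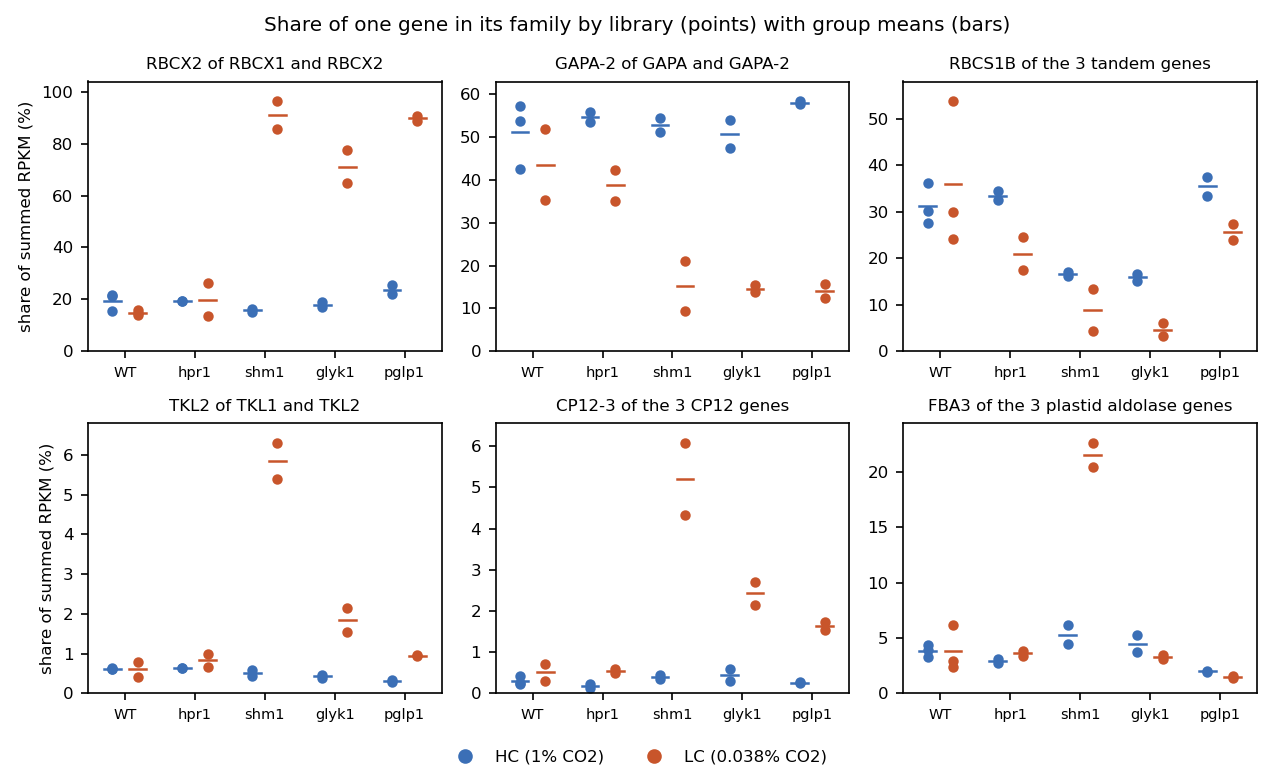
Share of 1 gene in the summed RPKM of its family (percent, y axis from 0, scaled per panel) in each library (points; HC blue, LC orange) with group means (bars). RBCX2 lies between 64.7% and 96.2% in LC of shm1, glyk1 and pglp1 and at or below 26.3% in all other libraries, and FBA3 reaches 20.5% and 22.6% in shm1 LC and at most 6.16% elsewhere.

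AT5G28500, annotated as a Rubisco accumulation factor-like protein, a family first known from maize as a chaperone of Rubisco assembly, counted 132, 182 and 340.4 CPM in the wild type, 244 and 210.2 in hpr1, 146 and 192 in shm1, 164 and 123 in glyk1, and 263 and 316 in pglp1 in HC. AT5G28500 in LC counted 146, 279 and 279.9 CPM in the wild type, 108 and 152 in hpr1, 13.4 and 2.49 in shm1, 11 and 27.6 in glyk1, and 14.7 and 17.4 in pglp1. Its values in shm1, glyk1 and pglp1 were the lowest of all libraries with a wide gap to the rest. AT5G28500 differed from the wild type in LC by -4.87 ± 0.70 (adjusted p = 2.15e-05) in shm1, -3.61 ± 0.65 (adjusted p = 0.000281) in glyk1 and -3.87 ± 0.67 (adjusted p = 0.000132) in pglp1, and a difference among these mutants was not detected (adjusted p = 0.182).

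AT3G47650, a protein with a DnaJ-type cysteine-rich domain, counted 116, 183 and 199.6 CPM in the wild type, 239.6 and 222 in hpr1, 113 and 136 in shm1, 124 and 79.5 in glyk1, and 365 and 442 in pglp1 in HC. AT3G47650 in LC counted 75.3 and 219 CPM in the wild type, 100.2 and 109 in hpr1, 15 and 8.80 in shm1, 66 and 81.7 in glyk1, and 157 and 142 in pglp1. Only the shm1 libraries stood clear of the rest. AT3G47650 differed by -3.63 ± 0.46 (adjusted p = 9.23e-06) in shm1, -1.0 ± 0.41 (adjusted p = 0.0535) in glyk1 and 0.02 ± 0.41 (adjusted p = 0.969) in pglp1. AT5G51110, annotated as a pterin dehydratase-like protein, was lower in shm1, at -3.79 ± 0.37 (adjusted p = 8.12e-07), and in glyk1, at -1.17 ± 0.33 (adjusted p = 0.00704), but higher in pglp1, at 0.76 ± 0.31 (adjusted p = 0.0455), a call lost without wild-type LC replicate 1 (adjusted p = 0.149). It shares 545 bases with neighbouring genes on the other strand, which leaves its level uncertain. In pglp1 it counted 337 and 378 CPM in HC and 302 and 270 in LC, against 156 to 260 in wild-type HC.

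CPN60A and CPN60B, subunits of the chaperonin that folds the large subunit, were lower in shm1 and glyk1. CPN60A in HC counted 285, 587 and 931 CPM in the wild type, 981 and 737 in hpr1, 214 and 267 in shm1, 287 and 140.3 in glyk1, and 717 and 1006 in pglp1. CPN60A in LC counted 252, 646 and 292 CPM in the wild type, 196 and 250.1 in hpr1, 47.2 and 32.5 in shm1, 98.8 and 99.1 in glyk1, and 146 and 198 in pglp1. Both shm1 and both glyk1 libraries were below all wild-type libraries, and so were those of pglp1 and hpr1. CPN60A differed by -3.31 ± 0.54 (adjusted p = 6.95e-05) in shm1, -2.0 ± 0.50 (adjusted p = 0.00345) in glyk1 and -1.20 ± 0.49 (adjusted p = 0.0425) in pglp1, where the call was lost in 9 of 12 alternatives, with adjusted p = 0.0747 with a replicate block. CPN60B in HC counted 323, 616 and 687 CPM in the wild type, 1041 and 791 in hpr1, 267 and 350.3 in shm1, 344 and 174 in glyk1, and 917 and 1261 in pglp1. CPN60B in LC counted 232, 836 and 325 CPM in the wild type, 218 and 291 in hpr1, 25.2 and 10.2 in shm1, 73.3 and 90.3 in glyk1, and 411 and 443 in pglp1. The shm1 libraries were the lowest, followed by glyk1, while pglp1 lay inside the wild-type range. CPN60B differed by -4.71 ± 0.63 (adjusted p = 1.12e-05) in shm1, -2.51 ± 0.56 (adjusted p = 0.00145) in glyk1 and -0.12 ± 0.51 (adjusted p = 0.848) in pglp1.

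Tested directly, 27 of the 31 differed among shm1, glyk1 and pglp1 in LC, against 66.4% of all loci. The response to LC itself differed from that of the wild type for 3 genes upward and 25 downward in shm1 (54.1% of all loci, 25.7% upward and 28.4% downward). In glyk1 it did for 2 upward and 6 downward (39.5%, 20.1% and 19.4%), of which TKL2, RBCX1 and RBCX2 were called in every alternative and which numbered 3 to 12 when 1 library was left out, and in pglp1 for 4 upward and 4 downward (43.7%, 18.5% and 25.2%), or 5 and 3 with DESeq2's size factors. In hpr1, edgeR and DESeq2 each called 0 of 31 (0.0933% of all loci by edgeR), with 2 unadjusted p under 0.05. Among the mutants in LC the exceptions were FBA3, TKL1, CP12-3 and AT5G28500. Set against the mean of these mutants in LC, hpr1 (10 calls without hpr1 LC replicate 2) had 17 genes higher and 2 lower (51.8% of all loci were called, 30.2% higher and 21.6% lower), with the largest values either way for AT5G28500, with a log2 difference of 3.26 ± 0.45 (adjusted p = 3.64e-05), and RBCX2, with -2.14 ± 0.26 (adjusted p = 1.16e-05).

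Genes around the cycle were counted from 3 textbook lists against the wild type in LC. The counts are to be read beside the shares of all loci, which were 35.2% lower and 31.3% higher in shm1, 29.3% and 27% in glyk1, and 34.7% and 26.1% in pglp1. Of 11 other Rubisco and chaperonin factors, 10 were lower in shm1 in LC, 7 in glyk1 and 6 in pglp1, while 0, 0 and 1 were higher. Among them were LSMT-L, a methyltransferase of the Rubisco type (-4.73 ± 0.57 (adjusted p = 4.35e-06) in shm1), AT3G04550, the second accumulation factor-like gene (-4.70 ± 0.56 (adjusted p = 4.15e-06) in shm1), and, higher in pglp1, AT3G60210, a GroES-like protein (0.83 ± 0.27 (adjusted p = 0.0159)). Of 12 genes of the plastid thioredoxin system, which activates cycle enzymes in the light, 11 were lower and 1 higher in shm1, 4 and 1 in glyk1, and 6 and 0 in pglp1, so that the glyk1 count lay near the share of all loci. Its examples were AT3G11630, of the thioredoxin superfamily, at -3.98 ± 0.57 (adjusted p = 3.02e-05), TRXF2, an f-type thioredoxin, at -3.25 ± 0.50 (adjusted p = 4.32e-05), and TRXM3, an m-type thioredoxin, at 2.39 ± 0.21 (adjusted p = 2.88e-07), all in shm1.

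The enzyme isoforms that work outside the cycle, in glycolysis and sugar phosphate metabolism, formed the third list. Of 16, 7 were higher and 5 lower in shm1, 7 and 5 in glyk1, and 9 and 1 in pglp1; hpr1 had 1 call (2.83% of all loci). The largest rises were GAPCP2, a plastid dehydrogenase of glycolysis, at 3.99 ± 0.45 (adjusted p = 2.56e-06) in shm1, and RSW10, a second ribose 5-phosphate isomerase, at 3.34 ± 0.32 (adjusted p = 4.8e-07) in pglp1. RSW10 was also the call in hpr1, at 1.28 ± 0.31 (adjusted p = 0.041). The largest falls were the aldolases FBA5 at -5.26 ± 0.89 (adjusted p = 0.000103) and FBA7 at -4.82 ± 0.67 (adjusted p = 1.63e-05), both in shm1. RSW10 was also higher in shm1 at 3.22 ± 0.32 (adjusted p = 8.02e-07) and in glyk1 at 3.27 ± 0.32 (adjusted p = 8.97e-07), where EMB3119 was lower. The medians of the lists were -2.83, -2.15 and 0.08 in shm1, -1.12, -0.67 and 0.35 in glyk1, and -1.37, -0.50 and 0.73 in pglp1, in the order given, beside the medians of all loci above.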

How the data were processed

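Per the labels' protocols, polyadenylated leaf RNA was sequenced as 100-base single or 150-base paired reads; the labels do not assign the modes to libraries. CASAVA 1.8, edgeR, TAIR9 and TAIR10 are named in the submitters' processing notes, with no aligner. The authors deposited read counts and RPKM for every locus and library, per the file headers. Tests used the deposited counts; RPKM served for levels between genes and family shares. In wild-type LC replicate 3, 4920 displaced rows were taken as missing, since these 3 blocks correlate with the mean of the other wild-type LC libraries at 0.001, 0.007 and 0.194, and the other 20760 rows at 0.95.

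All 22 libraries were fitted together with edgeR 4.0.16 in R 4.3.3 (TMM, filterByExpr, 10 group means, robust quasi-likelihood F test; loci with displaced rows in 21 libraries), with Benjamini-Hochberg adjustment over 20372 loci and a threshold of 0.05, in 19 comparisons. The scripts were tested on simulated data. Each SE belongs to a log2 fold change and rests on the spread between libraries as well as on depth, which was 5.91 to 194.5 M counts. Alternatives were DESeq2 1.42.0, its size factors, no filter, a replicate block, summed tandem genes, only the groups compared, rows as deposited, and leaving out each library. Same-numbered wild-type libraries deviated together (r = 0.468, 0.175 and 0.426), and a block in the wild type alone called 0 of 31. Names and upstream windows came from the genome and annotation of RefSeq, TAIR10.1; coding identity came from global alignments with Biopython 1.88, and motif matches were searched on both strands.

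The genes and lists were chosen with earlier results of these data known. Values per library are given for the gene of each role with the highest mean RPKM over the 10 groups, genes called against the main direction in LC, those called in HC, and the RBCS and CP12 families; of other lists, the 2 largest rises and falls.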

Additional observations from a re-analysis of the deposited data

Results flagged for a closer look

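Genotypes differed in their response to LC by direct tests of the difference. In shm1, 28 of the 31 genes responded to LC differently from the wild type (54.1% of all loci did), with the largest positive difference for TKL2 at 2.77 ± 0.32 (adjusted p = 1.09e-05) and the largest negative one for GAPA-2 at -4.55 ± 0.95 (adjusted p = 0.00101). In glyk1, 8 genes did (39.5% of all loci), from 1.66 ± 0.35 (adjusted p = 0.00188) for RBCX2 to -3.0 ± 0.80 (adjusted p = 0.00823) for AT5G28500; the number was 3 to 12 when 1 library was left out, and TKL2, RBCX1 and RBCX2 were called in every alternative. In pglp1, 8 genes did (43.7% of all loci), 4 up and 4 down, from 2.17 ± 0.47 (adjusted p = 0.00175) for CP12-3 to -4.28 ± 0.83 (adjusted p = 0.000737) for AT5G28500; DESeq2's size factors gave 5 up and 3 down. In hpr1, 0 of 31 did by edgeR (0.0933% of all loci), with 2 unadjusted p under 0.05, and DESeq2 also called 0. Among shm1, glyk1 and pglp1 in LC, 27 genes differed (66.4% of all loci did). Between hpr1 and the mean of the other mutants, 19 genes differed (51.8% of all loci did). Groups of 2 or 3 libraries are too small for a test of single libraries.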

How the results depend on the processing

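Of the counts of called genes, those in shm1 in LC held best: 27 to 29 against shm1 in HC and 28 to 31 against the wild type when any 1 library was left out, with 24 of the 30 latter genes called in every alternative. The corresponding ranges were 0 to 1 for hpr1, 7 to 12 for glyk1 and 8 to 10 for pglp1 in LC against HC, 0 to 1 for pglp1 against the wild type in HC, 10 to 22 for glyk1 (lowest without glyk1 LC replicate 1) and 11 to 16 for pglp1 against the wild type in LC, 23 to 29, 3 to 12 and 6 to 11 for the responses of shm1, glyk1 and pglp1 relative to the wild type, 24 to 28 for a difference among these mutants, and 10 to 21 (lowest without hpr1 LC replicate 2) for hpr1 against their mean. For the response of glyk1, leaving out 1 of 8 different libraries gave 3 to 5 calls. With all rows as deposited, hpr1 LC against HC had 3 calls, pglp1 LC against HC 7, pglp1 against the wild type in HC 0, and the glyk1 response 5. DESeq2 gave 9, 1 and 3 for hpr1 LC against HC, and for shm1 and pglp1 against the wild type in HC. With only the groups compared in the fit, calls numbered 10 for hpr1 LC against HC, 0 for pglp1 in HC, 11 for glyk1 and 8 for pglp1 against the wild type in LC, and 4 for the glyk1 response; no filter on low counts also gave 0 for pglp1 in HC. The replicate block, whose numbers pair no mutant samples by the labels, gave 0 for pglp1 in HC, and otherwise kept each count within 1.5 times. In hpr1, same-numbered LC and HC libraries correlated at -0.336; crossing the numbers, chosen after seeing the data, gave 4 calls. Summing the tandem RBCS genes turned RBCS1B in glyk1 to 0.32 against HC and 0.19 against the wild type, as the sum is dominated by RBCS2B and RBCS3B. Among single genes, 2 values were reversed, 306 calls were lost and 80 gained, 190 values without a call moved by more than their SE, and 7165 values kept their side. At 2 or 3 libraries per group, smaller differences could not be detected.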
